A study of Mus musculus with 2 samples.

Results

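The tenth intron of Sfmbt2 on mouse chromosome 2 carries a dense tandem array of microRNA genes, and the values of that array in newborn liver are described here. Its members were chosen by position: every microRNA gene of the count tables that GENCODE M21 places on the plus strand of chromosome 2 between 10370000 and 10600000 on mm10. This gave 107 of the 1973 genes in the tables. The rule uses position and no measured value. MicroRNA sequencing was done on total RNA from whole livers of 2 pups of strain B6NCrl at postnatal day 0, 1 library per pup, with inserts below 30 bases. Neither pup was treated and their sex was not collected. The labels number the pups 1 and 2 and give both the same pregnancy, and each pup is 1 replicate. There is 1 group and no second tissue, age or genotype.

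Sfmbt2 encodes a Polycomb-group protein and is an imprinted gene, expressed from the paternal allele in the early embryo and in extraembryonic tissue. Its intronic microRNAs are known from rodents and belong to the Mir297, Mir466, Mir467 and Mir669 families, which lie in repeated blocks and are processed from the intron of the host transcript. The cluster is known best for its role in the placenta, and its loss disturbs placental growth. Some copies within a family are nearly identical and others have diverged, which matters for any method that assigns short reads to a locus.

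Libraries held 3422622 microRNA counts in pup 1 and 4538427 in pup 2, and levels are counts per 1000000 of these (CPM). Liver identity was plain from Mir122, the hepatocyte microRNA, at 342309 and 354939 CPM. The limit that a count of 0 allows is 0.877 CPM in pup 1 and 0.661 CPM in pup 2, for counting error only. Reads that mapped to several loci, 25.2% and 24.7% of all reads, are on no gene. Bulk liver cannot tell fewer cells that make a microRNA from less of it per cell. With 2 pups the smallest two-sided p of an exact sign-flip test is 0.5, so levels are set against the spread between the pups.

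All 107 members lie inside a single intron of Sfmbt2 (ENSMUSG00000061186.15; chromosome 2, 10370510 to 10595253, plus strand), from 10465287 to 10518279, a span of 53.0 kb. It is intron 10 of transcript Sfmbt2-201 and intron 11 of Sfmbt2-205, 62.5 kb long, and 0 members overlapped an exon of any of the 7 annotated Sfmbt2 transcripts. By symbol, 20 members belong to the Mir466 family, 20 to Mir669, 14 to Mir467 and 5 to Mir297, and 48 carry a provisional Gm name. A further 12 microRNA genes of the window, Mir466b-1, Mir466c-1, Mir466e and 9 of the Mir669a copies, were not analysed here. The repeat unit shows in the spacing of the 10 numbered Mir467a copies, whose starts lie a median of 2462 bases apart (2413 to 4880).

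The same families have 10 genes outside the locus in the tables. RefSeq mature sequences (GRCm38.p6, the assembly that mm10 denotes) were looked up by gene symbol. The source used held them for 8 of these 10 relatives and 0 of the 107 members, and no sequences were compared for this. Mature sequences of 4 relatives are shown because they make the base composition of the families visible: runs of alternating U and G, or of A and C. Capitals mark the seed, bases 2 to 8 from the 5′ end. The mature sequence of Mir466q lies at chr3:28419988-28420007 (plus strand), that of Mir467g at chr5:34732872-34732892 (minus), that of Mir467h at chr9:115381898-115381919 (plus) and that of Mir669n at chr3:115979905-115979924 (plus).
mmu-miR-466q: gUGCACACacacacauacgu
mmu-miR-467g: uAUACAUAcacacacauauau
mmu-miR-467h: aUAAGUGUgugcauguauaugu
mmu-miR-669n: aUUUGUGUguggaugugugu

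These letters recur in the members. GENCODE hairpins were searched on the gene strand alone, with T for U. The seed of mmu-miR-467g was found in 66 of 107 member hairpins (61.7%), against 3.36% of the other 1787 hairpins. That of mmu-miR-466q was in 30 members (28.0%) and 1.23% of the others, that of mmu-miR-669n in 10 members (9.35%) and 2.41%, and that of mmu-miR-467h in 1 member, Mir467e, and 0.672% of the others. A match is a string of letters in a hairpin and need not fall in a mature arm. The motif TGTGTG was in 91.6% of member hairpins and 12.7% of the others, and its reverse complement CACACA, which can overlap the seed of mmu-miR-466q, was in 81.3% and 8.06%. Both stood in the same hairpin in 76.6% of members and 5.43% of the others. Member hairpins had a median GC content of 38.3% (29.0% to 43.4%), against a median of 52.0% for the rest.

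The array as a whole held a small part of the liver microRNA counts, which leave out reads that map to several loci. Its members summed to 6306 counts in pup 1 and 7827 in pup 2, or 1842 and 1725 CPM, a mean of 1784 ± 83.3 CPM (SD, n = 2). This was 0.184% of the microRNA counts in pup 1 (exact Clopper-Pearson 95% interval 0.180% to 0.189%) and 0.172% in pup 2 (0.169% to 0.176%). The 2 levels are close, with the lower one in pup 2. The sum had a log2 ratio of -0.10 (-0.14 to -0.05), pup 2 over pup 1, where the median over all 390 genes tested was 0.00. Outside the locus, and among genes with 100 counts or more in each pup, the nearest ratios were those of Mir200a (-0.10), Mir671 (-0.10) and Mirlet7f-2 (-0.09), a likeness over 2 libraries that says nothing of a shared control.

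A few members held nearly all of these counts. A read in either pup was counted for 23 of the 107 members (21.5%), while 33.2% of all 1973 genes met that rule. Detection, meaning 10 or more counts in each pup, was reached by 8 members (7.48%), while 15.8% of all genes reached it. The remaining 84 members were at 0 in both libraries. The 6 highest members, Mir467d, Mir467e, Mir467c, Mir669o, Mir669l and Mir669c, held 98.8% of the cluster's counts in pup 1 and 98.1% in pup 2.

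**Figure D1:**
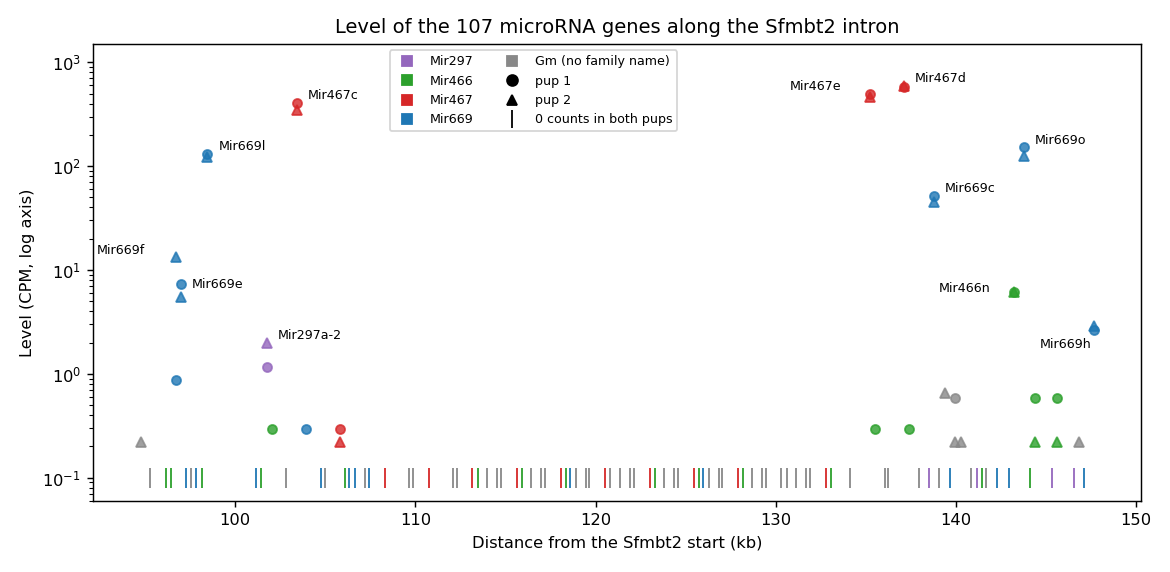
Level of each member by its distance from the Sfmbt2 start (kb) on a log axis of CPM, circles for pup 1 and triangles for pup 2, coloured by family. Ticks at the bottom are the 84 members at 0 in both pups; members above 1 CPM sit at both ends of the array, with Mir467c on the left and Mir467e and Mir467d on the right.

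The Mir467 family led the array. Its 14 members summed to 1486 CPM in pup 1 and 1400 CPM in pup 2, a mean of 1443 ± 60.5 CPM, or 80.9% ± 0.391 of the cluster. Nearly all of it came from 3 genes. Mir467d (chromosome 2, 10507630 to 10507714), with 1981 counts in pup 1 and 2681 in pup 2, stood at 579 and 591 CPM and was the highest member in both pups. With 32.8% ± 2.01 of the cluster and a mean of 585 ± 8.44 CPM, it ranked 97 among all genes.

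Mir467e (10505721 to 10505807) had 1707 and 2095 counts, or 499 and 462 CPM, a mean of 480 ± 26.3. Mir467c (10473931 to 10474027) had 1397 and 1579 counts, or 408 and 348 CPM, a mean of 378 ± 42.6. The order Mir467d, Mir467e, Mir467c held in both pups, the pups' values did not overlap between neighbours, and each gap exceeded the sum of the SDs. Mir467e reached 0.822 ± 0.0568 of the Mir467d level and Mir467c 0.647 ± 0.0822. The SDs of these and later ratios between members do not cover reads that map to several loci. Windows of 20 bases found in no other microRNA hairpin made up 37.9% of Mir467d, 57.4% of Mir467e and 60.3% of Mir467c. The part of this in the order and the ratios was not tested. Hairpins of Mir467d and Mir467e are 92.0% identical, and Mir467c is 83.5% identical to each.

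In contrast, the 11 genes of the Mir467a and Mir467b copies summed to 1 count in each library. These copies are nearly the same as each other, with a median pairwise identity of 98.8%, and 10 of the 11 have no 20-base window that is not also in another microRNA hairpin. The only copy with a count was Mir467a-1. Mir467d, with 84.7% median identity to the copies, kept windows of its own.

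Members of the Mir669 family came next, at 347 and 314 CPM, a mean of 330 ± 23.0 CPM and 18.5% ± 0.425 of the cluster. Mir669o (10514300 to 10514395) had 521 and 571 counts, or 152 and 126 CPM. Mir669l (10468971 to 10469068) had 449 and 552 counts, or 131 and 122 CPM. Mir669o was above Mir669l in both pups. The values of these 2 genes overlapped between the pups and their gap was below the sum of the SDs, so their order was not resolved. The gap from Mir467c down to Mir669o was clear, and Mir467d stood 4.25 ± 0.631 times above Mir669o.

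Mir669c (10509296 to 10509404) had 178 and 204 counts, or 52.0 and 44.9 CPM, below Mir669l in both pups. Mir669e (10467495 to 10467613) had 25 counts in each library, or 7.30 and 5.51 CPM. Mir669h, the last member of the array, had 9 and 13 counts, or 2.63 and 2.86 CPM. Mir669f is treated apart below, because its pups differ. Mir669e, Mir669f and Mir466n overlapped in their values and cannot be ordered.

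**Figure D2:**
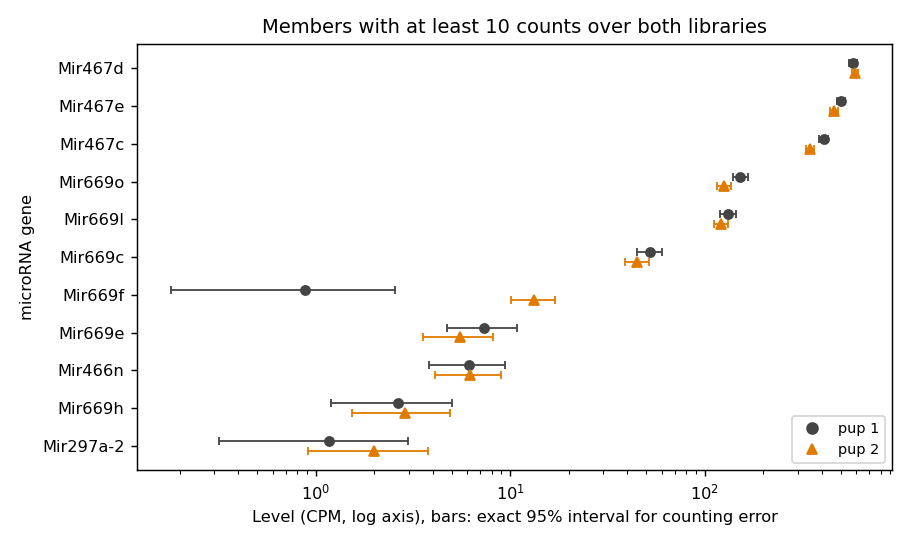
Levels of the 11 members with 10 or more counts in all, on a log axis of CPM, circles for pup 1 and triangles for pup 2, with bars for the exact 95% interval of counting error. Intervals of the 2 pups lie close for 10 members and are far apart for Mir669f.

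The Mir466 and Mir297 families had few counts, although Mir466 has as many members as Mir669. Reads that map to several loci are not in these counts, and their part in this was not tested. The 20 Mir466 members summed to 28 and 30 counts (8.18 and 6.61 CPM), and 1 of them, Mir466n with 21 and 28 counts (6.14 and 6.17 CPM), held most of these. Of the 5 Mir297 members, Mir297a-2 alone had counts, 4 and 9 (1.17 and 1.98 CPM). The 48 genes with a Gm name summed to 2 and 7 counts over the 5 of them that were read. In all, 12 members had between 1 and 9 counts over both libraries, 21 counts together.

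Read members lay at the flanks of the array. The middle, taken from the end of Mir467c to the start of Mir467e after the values were seen, holds 60 members in 30.3 kb and had 2 counts in pup 1 and 1 in pup 2. The microRNA genes named above as not analysed, from 10474219 to 10503877, all lie in this middle and are not in its counts. The left flank of 17 members had 549 and 490 CPM, with 7 members read. The right flank of 30 members had 1293 and 1234 CPM, with 14 read. Shared sequence follows the same division: a median of 0% of the 20-base windows of a hairpin were its own in the middle, 44.0% on the left and 51.3% on the right. A window counts as its own when no other microRNA hairpin holds it on either strand, other than a gene overlapping it. The rest of the genome was not searched.

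Sequence shared with other hairpins was the rule in this array. Of the 107 members, 105 (98.1%) share a stretch of 20 bases with another microRNA hairpin, against 46.1% of the other genes, and 38 are identical to another hairpin over their whole length. The 42 members (39.3%, against 12.1% of the others) with no window of their own had 1 count in each library. The 40 members with up to 50% of windows their own had 1992 and 2751 counts, and the 25 with more than 50% had 4313 and 5075. A read that matches several loci equally is on no gene, and such reads are not in these counts. Counts of the array are therefore lower limits of what its hairpins gave, by an amount the files do not show. The reads at several loci numbered 241 and 261 times the cluster's counts. Levels in CPM, shares and ratios need not be lower limits, because the totals and the other genes lack such reads too.

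Windows of their own did not go with counts in every member. Such a window can lie anywhere in the hairpin and need not fall in a mature arm. Mir466g shares no 20 bases with any other annotated microRNA hairpin and was at 0 in both libraries, and Mir669b, with 87.2% of windows its own, was at 0 too. They are 2 of the 11 members at 0 with more than 50% of windows their own, and Mir669i and 8 genes with a Gm name are the others. Among the 11 members with 10 or more counts in all the share ran from 32.4% for Mir297a-2 to 95.0% for Mir669e. The highest member, Mir467d, had 37.9%, so the highest level was not at the highest share. Whether the level follows this share among read members was not tested. The 2 members that share no 20 bases, Mir466g and Gm22239, held 2 counts in pup 1 and 1 in pup 2, all of them at Gm22239, or 0.0317% and 0.0128% of the cluster's counts.

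**Figure D3:**
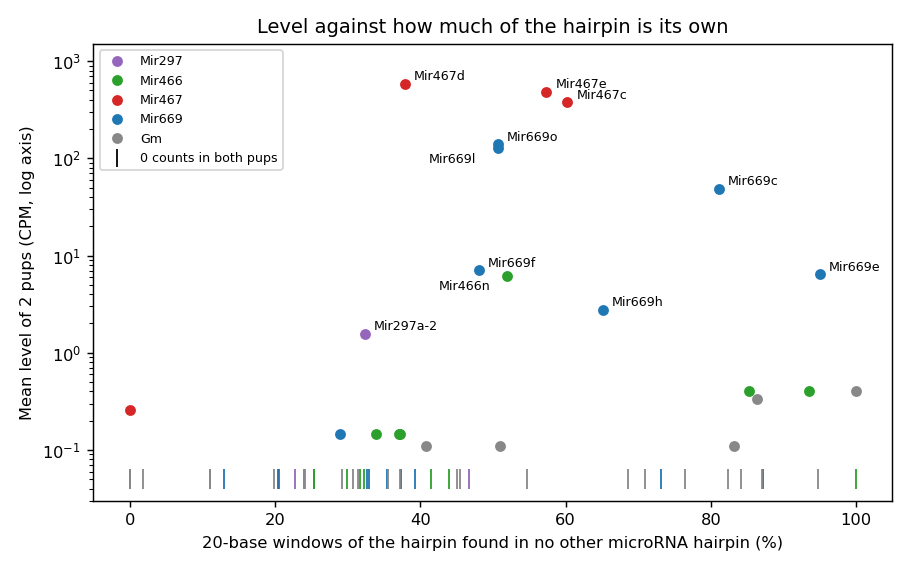
Mean level (CPM, log axis) of each member against the percent of its 20-base windows found in no other microRNA hairpin, coloured by family. Ticks at the bottom are members at 0 in both pups, of which 41 lie on top of each other at 0%; members with at least 10 counts begin at 32.4%.

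Reads came from the strand of the genes. The opposite strand had 0 counts at all 107 members in both libraries, which allows up to 0.0476% of the cluster's gene-strand counts in pup 1 and 0.0383% in pup 2. Of the 379 other genes with at least 10 counts, 339 (89.4%) also had none.

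The relatives outside the locus were next examined, to see whether the families were read elsewhere. Over the 10 genes a single read was counted, at Mir466q in pup 1, and pup 2 had 0 counts. Their summed level was 0.292 CPM in pup 1 and under the limit of 0.661 CPM in pup 2, against 1842 and 1725 CPM in the array. Mir669n, whose hairpin shares no 20 bases with any other microRNA hairpin, was at 0. The mature sequences printed above for Mir467g, Mir467h and Mir669n thus belong to genes without a counted read, and 9 of the 10 relatives share 20 bases with other microRNA hairpins.

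Set against other clusters, the array stood between an imprinted and an early embryonic one. The 34 genes of the imprinted Mir379-Mir410 cluster on chromosome 12, made from a maternally expressed transcript, summed to 67405 and 72886 CPM, 39.4 ± 4.02 times the Sfmbt2 array. Of those 34 genes, 29 had 10 or more counts in each pup. The 7 genes of the Mir290-Mir295 cluster, known from the early embryo and trophoblast, summed to 105 and 111 CPM, and the array stood 16.6 ± 1.36 times above them. The counted level of the array lay between those of the 2 clusters in both pups, by gaps wider than the SDs between pups. Those SDs do not cover reads that map to several loci: 98.1% of the array's members share 20 bases with another hairpin, against 11.8% of the Mir379-Mir410 genes and 28.6% of the Mir290-Mir295 genes, and the part of this in both ratios was not tested. The Mir290-Mir295 genes were led by Mir294 at 38.9 and 46.3 CPM.

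The pups were compared gene by gene to see which members differed by more than counting error. The exact binomial test was run over the 390 genes whose counts in the 2 pups added up to 10 or more, with Benjamini-Hochberg adjustment. It compares 2 libraries and no condition. Of the 11 members tested, 3 passed (Mir669f, Mir467c and Mir669o), and 30.3% of all 390 genes did, so this count is near the background. Mir467c and Mir669o were lower in pup 2 (14.4% of all genes were called lower) and Mir669f was higher (15.9%). The median log2 ratio of the 11 members was -0.11.

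Both of the lower members moved little. Mir467c had a log2 ratio of -0.23 (-0.34 to -0.13; adjusted p = 8.27e-05 by the exact binomial test) and Mir669o one of -0.27 (-0.45 to -0.10; adjusted p = 0.00744 by the same exact test). Mir467e had -0.11 (-0.20 to -0.02; adjusted p = 0.0591, exact) and did not pass, although it did with DESeq2 size factors. Mir467d had 0.03 (-0.05 to 0.11). For the 6 members with 100 counts or more in each pup the absolute log2 ratio had a median of 0.16, and for all 221 such genes one of 0.12.

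Mir669f (ENSMUSG00000077038.1; chromosome 2, 10467229 to 10467349) stood apart. Its 3 counts in pup 1 and 60 in pup 2 gave 0.877 and 13.2 CPM, a log2 ratio of 3.91 (2.30 to 6.23; adjusted p = 9.42e-11 by the exact binomial test). With edgeR's exact test on the negative binomial, Mir669f was the 1 member called of 11, and 0.513% of the 390 genes were, namely Mir669f and Mir206. That test takes its dispersion from the same 2 libraries it compares, so it adds no replication and the difference describes these libraries. The neighbouring Mir669e begins 145 bases downstream and had equal counts in the libraries, with a log2 ratio of -0.41 (-1.27 to 0.45). Mir669f shares 20 bases with 44 other hairpins, 28 of them in the array, and 48.0% of its windows are its own. The mean of 7.05 ± 8.73 CPM describes neither pup.

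Markers of other tissues were read beside this difference. The muscle list of 3 genes summed to 136 CPM in pup 1 and 1008 CPM in pup 2, nearly all of it Mir206 at 136 and 1004 CPM. Mir133b had 1 and 20 counts, a log2 ratio of 3.91 as for Mir669f. Mir1a-1 was at 0 in both, a count that leaves out reads that map to several loci. Of muscle genes outside the list, picked after their values were seen, Mir1b had 12 counts in each pup and Mir208a had 17 and 12. Mir208b, picked in the same way, had 59 and 129 counts, a log2 ratio of 0.72 that passed the exact binomial test. Mir499, also so picked, had 76 and 125 counts, a log2 ratio of 0.31 that did not pass. The 6 pluripotent or trophoblast genes, all read, summed to 103 and 108 CPM. Erythroid Mir451a had 3877 and 3310 CPM and Mir144 had 1374 and 1786 CPM, log2 ratios of -0.23 and 0.38 that both passed the exact binomial test. Leukocyte Mir223 had 8567 and 7846 CPM and endothelial Mir126a had 65978 and 69174 CPM. Their log2 ratios of -0.13 and 0.07 both passed the same test. The part of the cells behind these markers in the Mir669f difference was not tested.

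**Figure D4:**
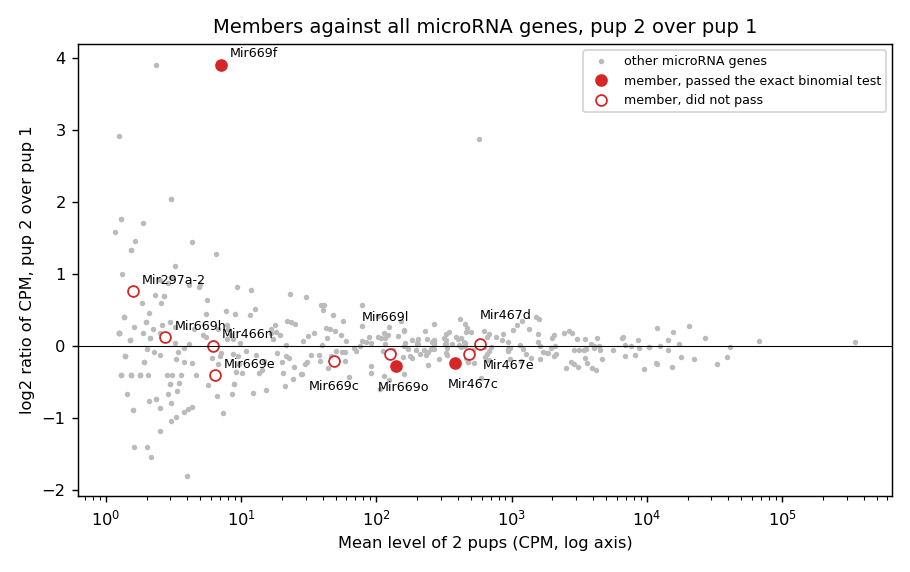
Log2 ratio of CPM, pup 2 over pup 1, against the mean level (CPM, log axis) for the 390 genes tested, with the 11 members in red, filled where they passed the exact binomial test. Mir669f lies at 3.91, and the other members lie between -0.41 and 0.76.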

How the data were processed

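MicroRNA libraries of 2 livers were used. The authors deposited raw read counts per microRNA gene, 1 table per library, made on mm10 with GENCODE M4, per the notes that accompany the tables. The sources used here name neither aligner nor counting program. The 3 count columns have no header, and their meaning (no strand, gene strand, opposite strand) was taken from their sums. Gene-strand counts are the main values. Uniquely mapped reads outside these genes (333144 and 499994) stayed out of library sizes. GENCODE M21, also on mm10, gave symbols, positions and hairpins. The 79 identifiers without a symbol there held 0 counts and could not be placed. A count covers a whole hairpin, so its arms are not told apart.

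Levels are CPM. The pups were compared by an exact binomial test (two-sided, scipy 1.17.1) given each gene's total and the library totals, over genes with 10 or more counts in all, adjusted by Benjamini-Hochberg at 0.05. The test was checked on simulated counts that held counting error alone, with totals over the unchanged genes. That check cannot show how the test behaves where pups differ by more than counting error. A quasi-likelihood test needs a second group. Intervals are exact Clopper-Pearson at 95%, a count of 0 is limited by 3 counts, and both cover counting error only. Alternatives used edgeR 4.0.16 and DESeq2 1.42.0 in R 4.3.3, counts without strand, other totals, other filters, other stretch lengths and each pup alone. The alternatives without Mir669f and with Mir symbols only were added after the data were seen.

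Members and lists were chosen with earlier results of these data known. Values are given for each member with 10 or more counts in all, for the 3 genes outside with the nearest ratio and for relatives with a read. Other genes named were picked after their values were seen.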

Additional observations from a re-analysis of the deposited data

How the results depend on the processing

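The level of 1784 CPM became 2737 CPM with totals without Mir122, 1616 CPM of all uniquely mapped reads and 0.402 CPM over the members that share no 20 bases with another microRNA hairpin. Those 3 settings change the denominator or the members by construction. With at least 1 count in both libraries in place of 10, 15 members were detected, beside 533 of all 1973 genes. By the edgeR negative binomial test 1 member differed between the pups in place of 3. With a shared stretch of 25 bases, 0.402% of the counts were on hairpins that share none. Leaving out 1 replicate gave 1725 to 1842 CPM for the level and 31.4% to 34.3% for the share of Mir467d. It gave 8 to 10 members detected, with no count over all genes to set beside them. It gave 0.0128% to 0.0317% for the hairpins that share no 20 bases, 0 to 0.292 CPM for the relatives, 0.0237 to 0.0273 for the ratio to Mir379-Mir410 and 15.6 to 17.5 for that to Mir290-Mir295. Mir467e joined the called members with DESeq2 size factors, with all uniquely mapped reads and with at least 30 counts, and Mir669f was called in every setting that tested it. The other alternatives stayed within the spread between the pups or within 1.5 times the count. No paired analysis was possible because the series has 1 group. Depth limits the members under 10 counts, whose order was not resolved.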
